A study of Homo sapiens with 10 samples.

Results

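A pair of KLF11 proteins that differ in the region they have lost or altered were set against each other in Panc1 cells, an established epithelial line from a human pancreatic carcinoma. One carries A347S, an alanine to serine change in the proline-rich region that, per the study's description, uncouples KLF11 from WD40-domain proteins such as the G protein subunit GNB2. The other, Δ486, is a deletion from residue 486 onward, described as separating KLF11 from HP1 and the histone methyltransferases that work with it. Both were delivered by adenovirus at a multiplicity of infection of 150, and total RNA collected at 48 h was profiled on Affymetrix gene-level arrays. The comparison uses the 4 arrays labelled with these mutants, of 10 in all, which also include 2 each of empty vector (EV), wild type KLF11 and EAPP, a mutant in the N-terminal site that binds Sin3. The cells keep their own KLF11, the mutants were added on top of it, and only 1 cell line was used. By the methods and the extract protocol, the 2 arrays of a construct are technical duplicates of RNA pooled from 3 cultures, although their titles number them as biological replicates, so p-values measure only the spread between arrays. The unit is log2 expression of a transcript cluster, which is the group of probes assigned to a gene, and a difference is A347S minus Δ486 on that scale.

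KLF11 is a zinc finger factor of the Krüppel-like family, known as an early gene of TGF-beta signalling in pancreatic epithelium and as a gene of inherited diabetes. It binds GC-rich promoter elements and acts mostly as a repressor, recruiting the Sin3 scaffold with its histone deacetylases. HP1 proteins bind histone H3 methylated at lysine 9, the mark written by SUV39H1 and EHMT2, whereas WD40 proteins such as G beta subunits serve as docking scaffolds in signalling.

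The transduced gene was measured first. On the A347S arrays KLF11 read 8.85 and 8.88, on the Δ486 arrays 8.72 and 8.83, and on the EV arrays 8.37 and 7.75. Its difference between the mutants was 0.10 (SE 0.16, unadjusted p = 0.561 in limma), which is less than the error of the fit. That error also takes in the wide EV pair. Both A347S arrays were above both Δ486 arrays and the highest of all 10, so equal KLF11 levels are not shown. No source used here says whether its probes detect the viral copy. Of duct epithelium markers, 6 of 10 measured lay above the array median, with a summed linear level of 13979 and 14817 with A347S and 14736 and 14243 with Δ486. Of acinar markers 2 of 7, of endocrine markers 1 of 7, of fibroblast markers 1 of 10 and of leukocyte markers 1 of 9 lay above it.

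Across 20961 clusters the second Δ486 array correlated at 0.9972 with the first A347S array and at 0.9958 with the first Δ486 array, while the A347S pair correlated at 0.9968. A difference of at least 1.5-fold separated 188 clusters between the 2 Δ486 arrays and 85 between the 2 A347S arrays. Against A347S, the first Δ486 array differed by that much in 201 and 230 clusters and the second in 49 and 77. The first Δ486 array thus stood apart from the other 3, and the second lay nearer A347S than its own partner. Several results, though not all, are also given without the first.

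No gene passed the test between the mutants. Of the 20961 clusters, 0 had a Benjamini-Hochberg adjusted p under 0.05 in limma, with or without a 1.5-fold difference, a share called of 0%. At an unadjusted p under 0.05, called nominal here, 1557 clusters (7.43%) passed, where 1048 would pass if none differed. Among them A347S was higher in 608 (2.9%) and lower in 949 (4.53%), and 22 (0.105%) also differed by 1.5-fold, 15 higher and 7 lower. In bulk RNA a change in some cells and less RNA per cell cannot be told apart. The excess of lower clusters depended on scaling, since the counts were 810 higher and 781 lower after cyclic loess, 803 and 835 after quantile normalization, and 701 and 631 with each array centred on its median. Without the first Δ486 array the nominal clusters numbered 929 (437 higher and 492 lower), and without the second they numbered 2467.

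How much the array readings of these RNA pools could still differ is given by the intervals. Like the p-values, they measure only the spread between arrays. Variation between cultures or transductions is not in them, so they do not bound the difference between the mutants in cells. The median standard error was 0.095 and the median 95% interval reached 0.214 to either side. For 20079 clusters (95.8%) the interval lay inside a 1.5-fold difference in either direction, and the percentiles 1 and 99 of the differences were -0.32 and 0.35. The plot of the difference against expression level shows the 25 clusters beyond 1.5-fold, whatever their p, as a thin fringe.

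**Figure D1:**
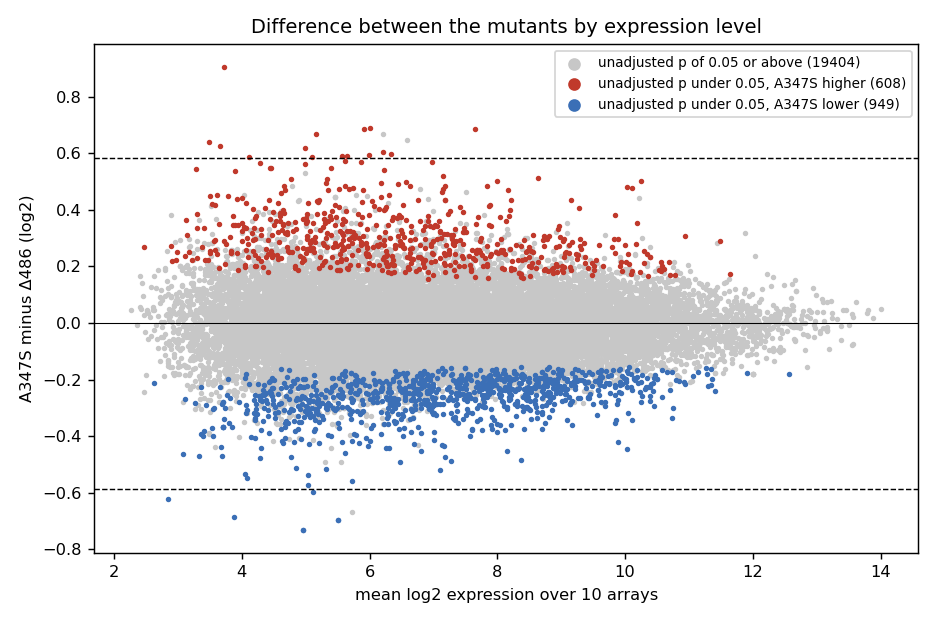
Each point is 1 of 20961 transcript clusters, with its mean log2 expression over 10 arrays on the horizontal axis and its A347S minus Δ486 difference (log2) on the vertical axis. Red and blue points are the 608 and 949 nominal clusters, dashed lines mark a 1.5-fold difference, and few points lie beyond them.

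Among genes nominally higher with A347S, the smallest p belonged to BCO2, an enzyme that cleaves carotenoids. It read 6.00 and 6.10 with A347S and 5.55 and 5.61 with Δ486, against 5.48 and 5.43 with EV and 5.75 and 5.85 with wild type KLF11. Its difference was 0.47 (SE 0.08, unadjusted p = 0.000126, adjusted p = 0.642), and both A347S arrays were the highest of all 10. CILP, a cartilage matrix protein, read 6.69 and 6.53 with A347S, only 5.87 and 5.96 with Δ486, and 5.33 and 5.52 with EV. The difference was 0.69 (SE 0.12, unadjusted p = 0.000201), with wild type KLF11 (6.41 and 6.28) between the mutants. DPY19L2, which is needed for the sperm head, read 6.70 and 6.68 with A347S and 6.04 and 6.14 with Δ486, a difference of 0.60 (SE 0.13). ZDHHC14, a palmitoyltransferase, had the other layout. It read 6.83 and 6.87 with Δ486, the lowest of all arrays, against 7.30 and 7.17 with A347S and 7.23 to 7.45 with EV, wild type KLF11 and EAPP. MR1, which presents microbial vitamin B metabolites to T cells, likewise read 4.81 on both Δ486 arrays and 5.18 and 5.16 with A347S (difference 0.36, SE 0.07).

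Several of the largest nominal differences came with wide pairs or dim clusters. SNORD115-44, a small nucleolar RNA, had the largest, 0.90 (SE 0.26), from A347S arrays of 3.83 and 4.85 against 3.26 and 3.61. The Δ486 arrays of ZNF814, a zinc finger gene, read 6.85 and 7.77, and those of H2BC19P, a histone pseudogene, 5.50 and 6.59, so in both the lower first array made most of the difference. Among genes read by their brightest cluster, VN1R4, a vomeronasal type receptor, had the lowest difference, -0.62 (SE 0.19), and read between 2.60 and 3.43 on the mutants' arrays.

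Genes nominally lower with A347S were led by CDH24, a cadherin, which read 5.98 and 5.89 with A347S and 6.39 and 6.36 with Δ486, next to 6.57 and 6.53 with EV (difference -0.44, SE 0.07, unadjusted p = 0.000103). PIMREG, a regulator of mitosis, read 9.20 on both EV arrays, 8.01 and 8.08 with wild type KLF11, 8.03 and 7.93 with Δ486 and 7.62 and 7.37 with A347S. Its difference was -0.48 (SE 0.10), and Δ486 lay at the wild type level. CCNF, the substrate adaptor of a ubiquitin ligase active in G2, read 7.61 and 7.60 with A347S and 8.01 and 7.92 with Δ486 (difference -0.36, SE 0.07). HOXC12, a homeobox gene, read 8.16 and 8.05 with A347S and 8.42 to 8.52 on the other 8 arrays (difference -0.38, SE 0.08). CA2, the carbonic anhydrase of duct cells, ran the opposite way in level, since both mutants were above EV (5.43 and 5.51) and Δ486 was the highest of all, at 6.62 and 6.57 against 6.12 and 6.21 with A347S (difference -0.44, SE 0.08). SMIM24, a small membrane protein, read 7.69 and 7.37 with Δ486 and 6.91 to 7.11 elsewhere (difference -0.52, SE 0.12).

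**Figure D2:**
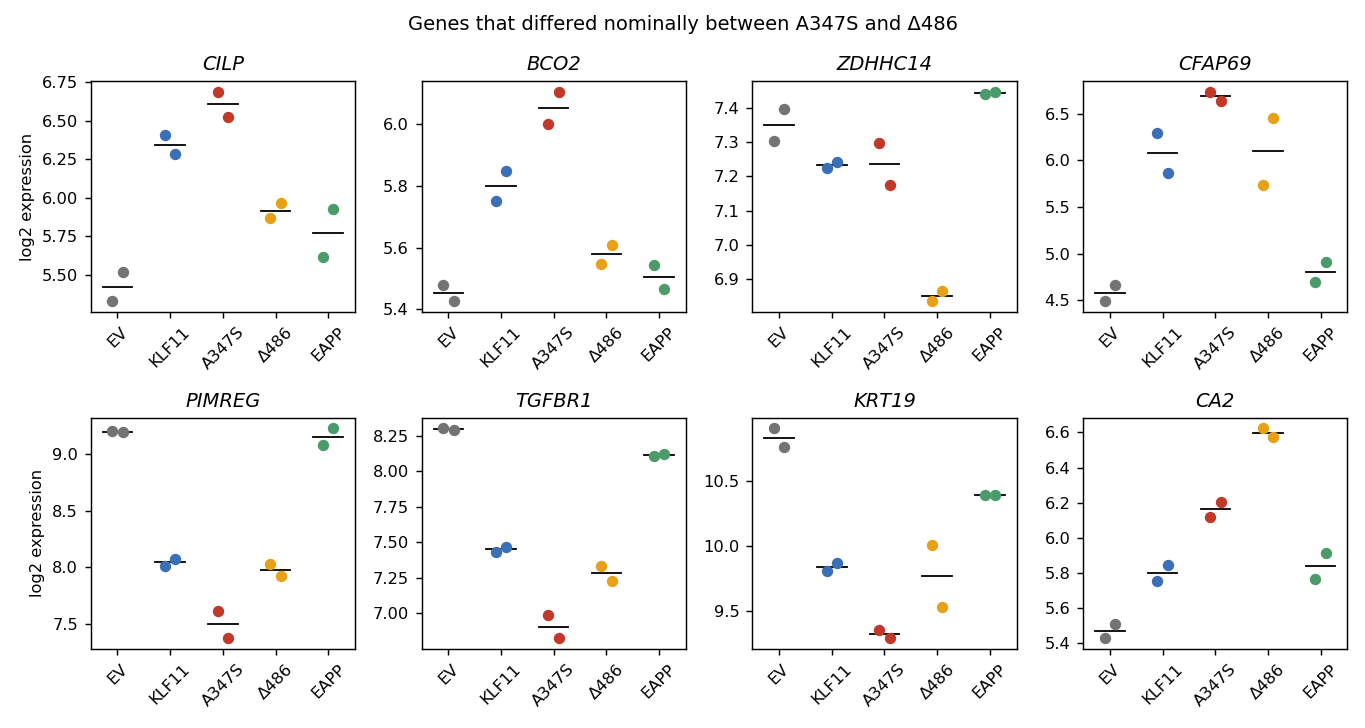
Points are the log2 expression (vertical axis) of 8 genes on the 2 arrays of each construct, and bars are construct means; the vertical axes differ and do not start at 0. In CILP, BCO2, PIMREG and TGFBR1 the A347S arrays lay beyond the other 8, in ZDHHC14 and CA2 the Δ486 arrays did, and the Δ486 arrays of CFAP69 and KRT19 lay far apart.

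Counting such layouts over all 20961 clusters, A347S held both highest arrays of the 10 in 1211 (5.78%) and both lowest in 1880 (8.97%). Δ486 held both highest in 608 (2.9%) and both lowest in 292 (1.39%). The balance for Δ486 turned with scaling: with each array centred on its median it held both highest in 285 and both lowest in 563, and A347S in 792 and 1804. The balance for A347S depended on scaling too. It held both highest in 1534 and both lowest in 1534 after cyclic loess, and in 1421 and 1648 after quantile normalization.

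A reading on separate arrays asked whether the genes that wild type KLF11 moves differ between the mutants. Wild type KLF11 against EV called 463 clusters higher and 374 lower at an adjusted p under 0.05 and a fold of 1.5 (2.21% and 1.78%), and neither group shares an array with the mutants. Of the 463, 440 (95%) were higher with A347S than with Δ486, where 43.7% of all clusters were, and the median difference was 0.19 (quartiles 0.12 and 0.28). Of the 374, 350 (93.6%) were lower with A347S, against 56.3% of all, with a median of -0.16 (quartiles -0.23 and -0.09). The 2 arrays of the same mutant also differed on these clusters, since 89.4% of the 463 were higher on the second Δ486 array than on the first, and 79.4% of the 374 were lower on the second A347S array than on the first. Nominal differences in the wild type direction numbered 134 of the 463 and 116 of the 374. The opposite direction was nominal in 1 each, HSPB8, a small heat shock protein (-0.27), and C1QTNF9B, a secreted C1q relative (0.55). Both A347S arrays lay beyond both Δ486 arrays in that direction in 311 (67.2%) and 236 (63.1%), where 14.9% of all clusters lay above and 22.2% below.

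Against EV, the 463 had median changes of 0.97 (A347S), 0.77 (Δ486) and 0.76 (wild type). The 374 had -0.94, -0.80 and -0.69, and the 3 values of a set share the EV arrays. The clusters were chosen on wild type minus EV, which enlarges the wild type medians. Their size is therefore not a like measure beside the medians of the mutants. The difference between the mutants was graded with the wild type response. In clusters that wild type KLF11 raised by more than 1.5 log2 units it had a median of 0.38 (25 clusters), by 1 to 1.5 a median of 0.25 (77), by 0.585 to 1 a median of 0.17 (370), and between -0.1 and 0.1 a median of -0.02 (8698). In those lowered by 0.585 to 1 it was -0.16 (353) and by 1 to 1.5 it was -0.19 (25). Across all clusters the slope of A347S minus Δ486 on wild type minus EV was 0.217 (r = 0.438 over 20961 clusters, which are not independent replicates). The slope without the first Δ486 array was 0.153 (r = 0.299), and the medians of these bins from the most raised down were 0.23, 0.14, 0.09, -0.002, -0.16 and -0.25. Without the second the slope was 0.282, without the first A347S array 0.262 and without its second 0.172.

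**Figure D3:**
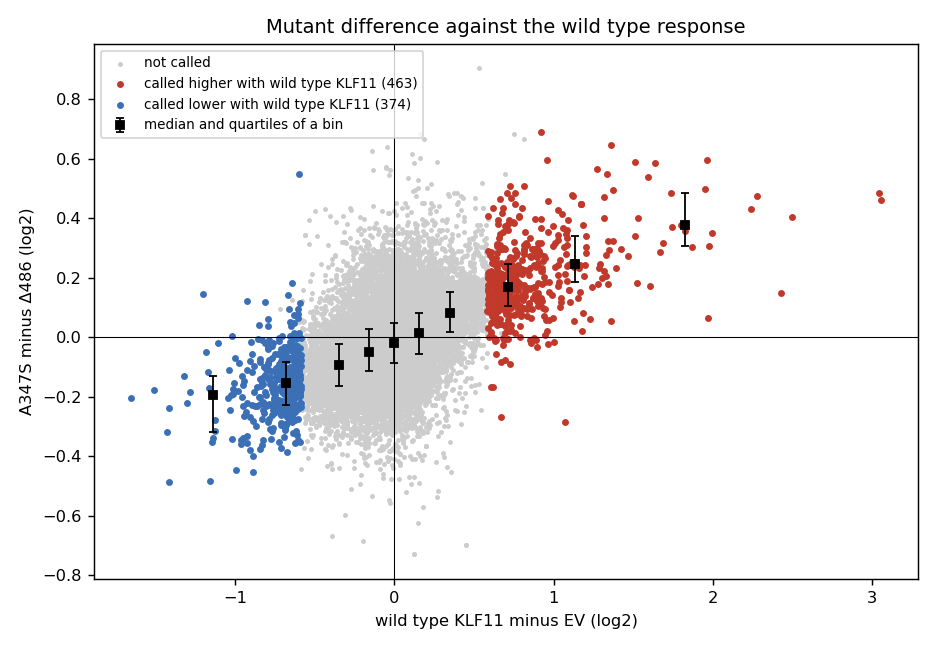
Each point is a transcript cluster, with wild type KLF11 minus EV (log2) on the horizontal axis and A347S minus Δ486 (log2) on the vertical axis; the 2 axes share no array. Black squares are medians with quartiles of bins holding at least 25 clusters, and they rise from -0.19 to 0.38 with all arrays. Without the first Δ486 array these 2 values are -0.25 and 0.23.

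Single arrays set the size of this shift. For the 463 risers, the 2 A347S arrays exceeded the first Δ486 array by medians of 0.27 and 0.29 but the second by only 0.09 and 0.13, and the Δ486 arrays differed from each other by 0.17. Between 75.8% and 96.8% of the risers were higher with A347S in each of the 4 pairs. For the 374 fallers the A347S arrays mattered more, since the medians were -0.23 and -0.22 for the second A347S array against the Δ486 arrays and -0.11 and -0.10 for the first, while the second A347S array differed from the first by -0.11. The direction was shared by 79.7% to 91.2% of the fallers in the 4 pairs. Without the first Δ486 array the riser median was 0.11 and 84.1% were higher, and without the second A347S array the faller median was -0.11 and 80.4% were lower. The direction of the median thus held in every pair of arrays. For the risers its size (0.19) was close to the gap between the 2 Δ486 arrays (0.17), while the A347S arrays differed by 0.02. For the fallers (-0.16) the 2 A347S arrays differed by -0.11 and the Δ486 arrays by -0.01.

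**Figure D4:**
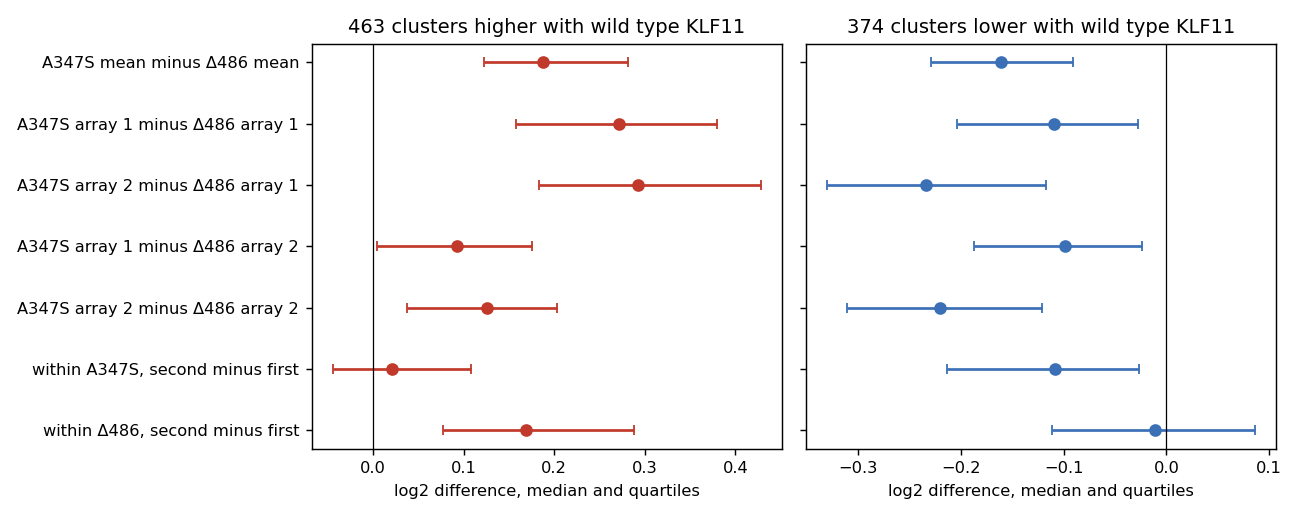
Points are medians and bars quartiles of the log2 difference over the 463 clusters higher (left) and 374 lower (right) with wild type KLF11, for the means, for each A347S array minus each Δ486 array, and for the 2 arrays of the same mutant. The riser medians are 0.27 and 0.29 against the first Δ486 array and 0.09 and 0.13 against the second.

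The risers and fallers named below were picked by their difference or p between the mutants. They are examples and add no support to the shift. SUCLG1, a subunit of succinyl-CoA ligase in the tricarboxylic acid cycle, read 9.35 on both EV arrays, 10.09 and 9.97 with wild type KLF11, 10.25 on both A347S arrays and 9.90 and 10.01 with Δ486 (difference 0.30, SE 0.07). CFAP69, a cilia and flagella protein, read 6.74 and 6.63 with A347S, but the Δ486 arrays read 5.73 and 6.46 (difference 0.59, SE 0.21). SPATA17, a testis gene, read 7.21 and 7.41 with A347S and 6.57 and 6.85 with Δ486 (difference 0.60, SE 0.22).

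Among fallers, TGFBR1, the type I TGF-beta receptor, read 8.30 and 8.29 with EV, 7.33 and 7.23 with Δ486 and 6.99 and 6.82 with A347S (difference -0.38, SE 0.08, unadjusted p = 0.000862). NNT, a mitochondrial source of NADPH, read 9.33 and 9.22 with A347S and 9.68 and 9.57 with Δ486 (difference -0.35). CPOX, an enzyme of heme synthesis, read 6.47 on both A347S arrays and 6.84 and 6.73 with Δ486. CDC25B, the phosphatase that starts mitosis, read 7.61 and 7.35 with A347S and 7.99 and 7.88 with Δ486 (difference -0.45, SE 0.10). Mitosis genes as a list did not share this. A list of 38 G2/M and mitosis genes had 3 nominally lower and 0 higher (7.89%), beside 7.51% of all genes nominal in either direction. Its median was -0.006, against -0.02 over all genes. KRT19, the keratin of duct epithelium, read 9.35 and 9.29 with A347S but 10.01 and 9.53 with Δ486, so its first Δ486 array lay above the wild type level (9.81 and 9.87) and its second below it. IDH1, the cytosolic isocitrate dehydrogenase, read 11.21 and 11.19 with EV, 9.40 and 9.44 with Δ486 and 9.21 and 8.99 with A347S (difference -0.32, SE 0.08).

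The promoters of these wild type responsive genes bear on KLF11, which binds CCCCGC and CCCCAC, so the windows from 250 bases before to 50 after the start of the 2 genes with the smallest p each way are shown. They come from RefSeq on GRCh38.p14, and PIMREG has no entry in the table. Capitals mark either motif on either strand (GCGGGG and GTGGGG on the reverse).
CILP, chr15:65211424-65211723, minus strand: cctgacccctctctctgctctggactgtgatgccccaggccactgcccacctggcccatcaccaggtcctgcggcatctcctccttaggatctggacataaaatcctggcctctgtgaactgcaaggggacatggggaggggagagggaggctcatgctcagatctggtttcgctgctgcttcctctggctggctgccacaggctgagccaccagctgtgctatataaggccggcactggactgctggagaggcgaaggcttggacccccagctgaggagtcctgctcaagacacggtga
LEAP2, chr5:132873418-132873717, plus strand: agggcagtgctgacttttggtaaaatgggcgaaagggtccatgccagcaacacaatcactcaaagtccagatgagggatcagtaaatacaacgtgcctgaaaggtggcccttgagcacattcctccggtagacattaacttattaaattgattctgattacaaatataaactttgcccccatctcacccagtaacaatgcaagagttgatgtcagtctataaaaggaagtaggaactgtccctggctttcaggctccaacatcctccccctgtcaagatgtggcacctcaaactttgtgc
TGFBR1, chr9:99104863-99105162, plus strand: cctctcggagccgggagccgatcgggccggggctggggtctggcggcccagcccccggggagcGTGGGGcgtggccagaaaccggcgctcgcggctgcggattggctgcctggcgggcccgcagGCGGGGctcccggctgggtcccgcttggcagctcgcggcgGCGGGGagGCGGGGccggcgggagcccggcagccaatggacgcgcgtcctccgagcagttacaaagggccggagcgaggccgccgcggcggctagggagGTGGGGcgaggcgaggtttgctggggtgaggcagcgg
NNT, chr5:43602425-43602724, plus strand: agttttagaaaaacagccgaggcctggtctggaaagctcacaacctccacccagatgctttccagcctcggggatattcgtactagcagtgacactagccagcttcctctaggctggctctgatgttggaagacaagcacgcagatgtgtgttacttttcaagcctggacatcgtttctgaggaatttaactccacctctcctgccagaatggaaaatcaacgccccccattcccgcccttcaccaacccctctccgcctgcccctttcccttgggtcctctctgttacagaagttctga
TGFBR1 holds 3 CCCCGC and 2 CCCCAC, and neither motif is in the windows of CILP, LEAP2 and NNT. LEAP2, an antimicrobial and hunger-related peptide, had a difference of 0.40. Of 14210 measured genes with a promoter, 68.6% held either motif. The share was 53.3% of 364 genes called higher with wild type KLF11 and 87.7% of 277 called lower, and it was 55.9% of 410 genes nominally higher with A347S and 75.9% of 665 nominally lower. The median GC content moved with it, being 63% over all genes, 60% and 70.7% among the wild type risers and fallers, and 57.2% and 66.3% among the nominal genes. Its part in these shares was not tested.

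The place of EV was read to see which mutant lay farther from the vector level. Of the 1557 nominal clusters, EV lay nearer Δ486 in 1165 (74.8%), against 59.8% of all clusters, and EAPP did in 1195 (76.8%), against 60.5%. EV lay between the mutants in 472 (30.3%), against 16.5% of all. Wild type KLF11 did so in 57.4%, against 26.3%, and EAPP in 33.5%, against 19.7%. The nominal clusters were picked for a gap between the mutants, and a wider gap encloses any other mean more often. The higher share between the mutants therefore does not bear on the place of EV. The larger share with EV nearer Δ486 fell away with a Δ486 array left out. It was 58.4% without the first and 55.3% without the second, beside 59.3% and 52.5% of all clusters. Without the first and second A347S arrays it was 87.3% and 72.0%, beside 65.0% and 57.3%.

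The partners of the altered sites were read next. GNB2 read 9.20 and 9.31 with A347S and 9.33 and 9.24 with Δ486 (difference -0.03, 95% interval -0.20 to 0.14), and CBX5, which encodes HP1 alpha, 10.80 and 10.75 against 10.63 and 10.77 (difference 0.07, interval -0.12 to 0.26). The groups overlapped in both genes. SUV39H1 read 7.77 and 7.65 against 8.05 and 7.86 (difference -0.25, SE 0.09), EHMT2 7.39 and 7.23 against 7.53 and 7.52 (difference -0.21), and SIN3A 7.89 and 7.70 against 8.06 on both arrays (difference -0.26, SE 0.08), each nominal. Of 15 HP1 proteins and H3K9 methyltransferases 1 was nominally higher and 2 lower, against 7.51% of all 18377 genes nominal in either direction (2.88% higher, 4.63% lower). With each array centred on its median 0 were higher and 1 lower, so SUV39H1 and EHMT2 were then not both nominal. The list median was -0.10, and it was -0.08 without the first Δ486 array and -0.07 without the second A347S array. Of 18 G protein subunits and WD40 partners 0 were nominal and 0 passed an adjusted p in limma, while 2 were nominally lower without the second Δ486 array and 1 without the first A347S array.

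Across the gene lists, chosen with earlier results of these data known, 0 members passed an adjusted p, and in several lists all nominal members lay on 1 side. Hypoxia response genes had 8 of 31 nominally lower and 0 higher with A347S (25.8%), with a list median of -0.10 against -0.02 over all genes. DDIT4, an inhibitor of mTORC1, read 7.70 and 7.52 against 7.98 and 7.96 (difference -0.36), HK2, the hexokinase of rapid glycolysis, differed by -0.32, and the others were PDK1 (-0.23), ADM (-0.26), NDRG1 (-0.29), ANGPTL4, EPAS1 and BNIP3. ATF4 targets and unfolded protein response genes had 6 of 32 lower and 0 higher (18.8%), namely PYCR1 of proline synthesis (-0.32), the arginine transporter SLC7A1 (-0.23), the chaperones and chaperone partners HYOU1, SDF2L1 and CRELD2, and DDIT4 again. Sterol synthesis genes had 4 of 19 lower (21.1%): SQLE (-0.24), DHCR7 (-0.27), ACAT2 (-0.18) and IDI1 (-0.21), and 16 of the 19 had a difference below 0, as 56.6% of all genes did (49.6% with median centring). With each array centred on its median these counts were 6 lower for hypoxia, 3 for ATF4 targets and 2 for sterol synthesis, and 0 higher. Without the first Δ486 array they were 2, 5 and 1 and without the second 5, 2 and 4, while without the first A347S array they were 7, 5 and 8 and without the second 3, 3 and 0. The 3 list medians stayed below 0 under all of these settings. Of all genes, 3.11% were nominally lower with median centring, 2.33% and 6.82% without the first and second Δ486 arrays, and 5.42% and 3.43% without the first and second A347S arrays.

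Growth factor signalling gave like counts. Of 29 EGF receptor ligands and MAPK feedback genes 5 were nominally lower and 0 higher (17.2%), where 4.63% of all genes were lower and 2.88% higher. These were SPRY2 (-0.27) and SPRY1 (-0.22), which restrain receptor tyrosine kinases, ERRFI1 (-0.20), which inhibits the EGF receptor, the ligand EREG (-0.25) and FOSL1 (-0.19), a part of AP-1. Of 29 TGF-beta and BMP genes 4 were lower and 0 higher (13.8%), the receptors TGFBR1 and ACVR1B (-0.20), the ligand BMP4 (-0.42) and the target ID1 (-0.33), and BMP4 was above EV with both mutants (0.17 with A347S and 0.59 with Δ486). Epithelial genes had 4 of 24 lower (16.7%; KRT19, CLDN4, CLDN7 and TJP1) and mesenchymal genes 4 of 29 (13.8%; TGFBR1, COL1A1, TWIST1 and CCN2), so lists with opposite uses shared the direction. Of 24 KLF and SP factors 4 were lower and 1 higher, KLF3 (0.21), which is 20.8% in either direction. Without the first Δ486 array the lower counts were 2 for EGF receptor, 2 for TGF-beta, and 1 each for epithelial, mesenchymal and KLF and SP genes. With median centring they were 3, 2, 3, 2 and 1, and without the second A347S array 1, 2, 2, 2 and 1, with 1 EGF receptor and 1 epithelial gene higher. Without the second Δ486 array they were 3, 8, 2, 5 and 3, and without the first A347S array 6, 3, 4, 2 and 5. The shares over all genes under these settings are those given for the hypoxia list.

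Nominal members of the ciliary lists were higher with A347S. Of 59 motile cilium and sperm flagellum genes 7 were nominally higher with A347S and 0 lower (11.9%), namely CFAP69, CFAP43 (0.48), CFAP44 (0.50), CFAP70 (0.35), SAXO2 (0.54), CCDC40 (0.23) and DNAI3 (0.30), although 52 of the 59 did not pass, 32 lay above 0 and the list median was 0.02. Of 37 intraflagellar transport and BBSome genes 3 were higher and 0 lower, IFT43 (0.41), IFT80 (0.24) and IFT20 (0.30), with a list median of 0.08. Median centring left 8 and 3 higher, where 3.36% of all genes were higher. Nominal members of the cilium list were no longer all higher without the second A347S array or without either Δ486 array. Those of the transport list were not all higher without the second Δ486 array. The cilium list was also dim, with a median level of 5.63 against 6.88 over all genes. Without the first Δ486 array the medians of the cilium and transport lists were 0.024 and 0.013, and without the second 0.045 and 0.139. They were 0.045 and 0.059 without the first A347S array and 0.018 and 0.094 without the second. The median over all genes was -0.009, -0.032, -0.02 and -0.015 in the same order. Nominal members were 0 of 25 p53 targets and 0 of 22 nucleotide excision repair genes, and 1 of 54 respiratory chain genes, NDUFA5 (0.35).

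**Figure D5:**
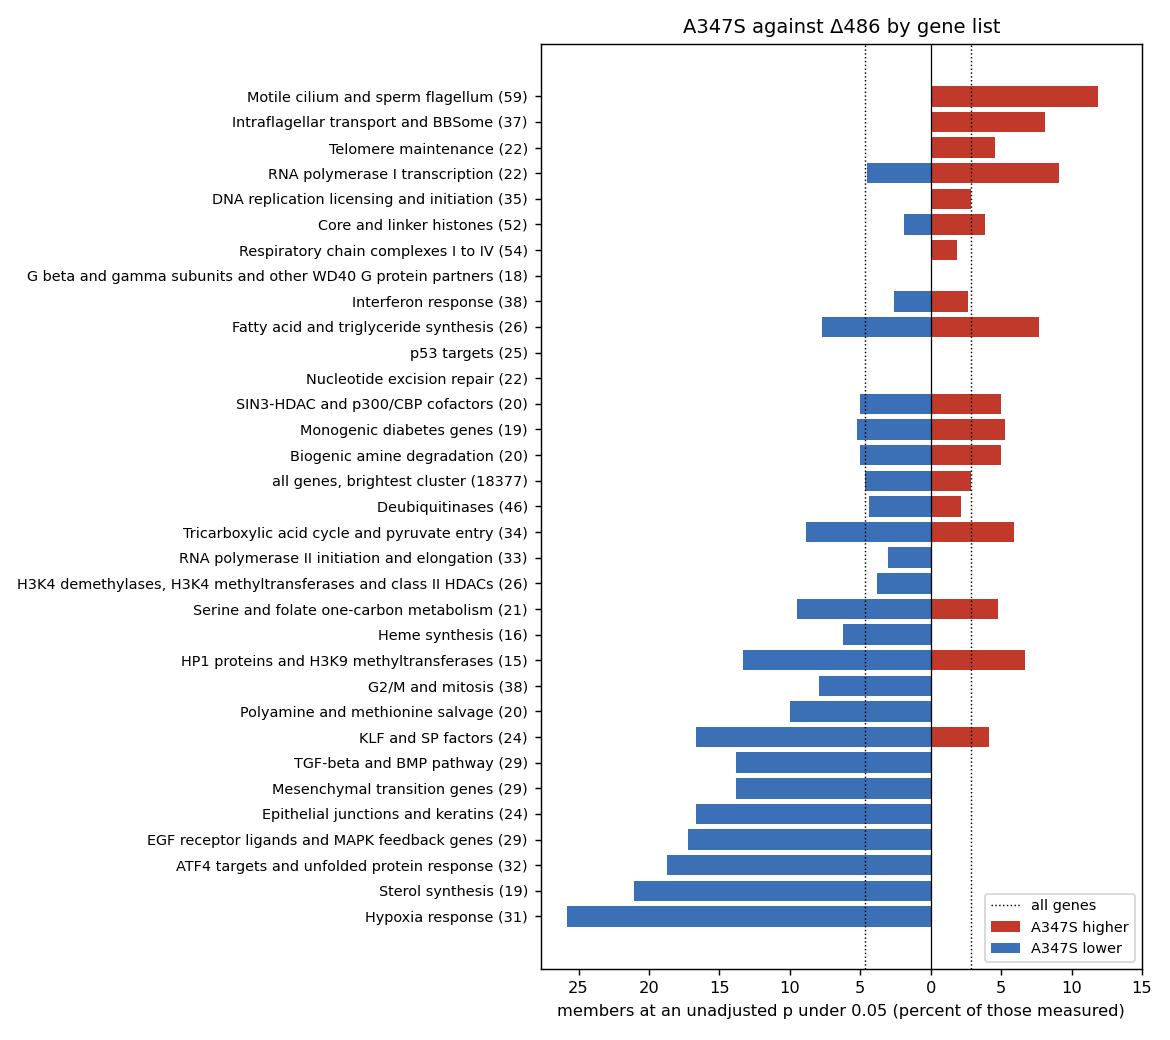
Bars give the percent of measured members (number in brackets) at an unadjusted p under 0.05, with A347S lower to the left and higher to the right of 0, and dotted lines mark all 18377 genes (4.63% lower, 2.88% higher). Hypoxia response reaches 25.8% lower, and the cilium list 11.9% higher.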

How the data were processed

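Expression was measured in Panc1 cells on 10 Human Gene 1.0 ST arrays, 2 per construct. The authors subtracted background and normalized by Robust Multiarray Analysis, and the deposited values are log2 expression per transcript cluster, one column per array. The submitters' processing notes name Partek 6.6. The annotation's genome build: not given in the sources. Of 28869 clusters, 7908 without a gene symbol were left out. Of the 20961 tested, 1732 carry several symbols and were counted, never named. Genes with several clusters are named by their brightest one.

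With limma 3.58.1 (R 4.3.3), a linear model gave each construct a mean over all 10 arrays (5 residual and 4.54 prior degrees of freedom), and A347S was contrasted with Δ486, with two-sided p-values and Benjamini-Hochberg adjustment. The members and lists were chosen with earlier results of these data known. The genes named are KLF11, the 12 largest nominal differences each way with non-overlapping arrays, the 6 smallest p each way, the 5 largest each way among wild type called genes and among those with EV between, 3 per list and 5 partner genes. The other genes named, such as NNT, LEAP2 and further list members, were chosen after their values were seen. The same replicate number was not taken to pair the arrays. Deviations of the first A347S and first Δ486 arrays correlated at -0.035, which covers only these constructs and cannot settle pairing across the series. The pipeline was tested on simulated data. Single-array readings, counts of extreme arrays, and list counts, bins and slopes under other settings were chosen after seeing the data. The number of arrays limits the precision. Figures were drawn with matplotlib 3.10.9.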

Additional observations from a re-analysis of the deposited data

How the results depend on the processing

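No call arose under any alternative: the count of clusters at an adjusted p under 0.05 and a 1.5-fold difference stayed at 0 with every array left out in turn (0 to 0), with the replicate block, the methods' t-test (two-sided, 1068 at an unadjusted p under 0.05), other scalings, an absolute log2 threshold of 1.5 and no fold. With the replicate block 1461 clusters were nominal. Nominal clusters with a 1.5-fold difference, 22 by the fit reported, were 73 with clusters lacking a symbol, 13 without clusters of mean log2 under 5, 7 without moderation and 3 by the t-test. Intervals inside 1.5-fold, 95.8%, were 92.0%, 96.9% and 88.4% under the first 3 of these, and 96.2% with 1 cluster per gene, with the 4 arrays alone and with a variance trend and robust moderation. EV lay nearer Δ486 in 69.8%, 79.5%, 80.0% and 83.8% (all clusters, dim ones out, no moderation, trend) and in 71.8% with median centring, where nominally lower clusters were 631. Calling wild type fallers without a fold left 87.4% lower with A347S. Leaving out 1 array gave 929 to 2467 nominal clusters, 437 to 1086 higher, 492 to 1381 lower, 22 to 134 with 1.5-fold (51 and 45 without the first and second A347S arrays), 86.9% to 96.0% of intervals inside, 55.3% to 87.3% with EV nearer Δ486, 84.1% to 97.0% of risers higher and 80.4% to 93.8% of fallers lower. A lone array is assumed to vary like the others. Of 142 named genes, 3 changed sign: GNB2 (-0.0863 to 0.0256 over all arrays left out, and 0.0151 without the first Δ486 array), INSM1 (-0.218 to 0.0642) and CBX5 (-0.00035 to 0.138), the last 2 without the first Δ486 array. The cause was not tested.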

Other observations

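The cluster with the smallest adjusted p belonged to FAM86B3P, a pseudogene of a family with near-identical copies, so its signal may be shared. It was the dimmer of 2 clusters of this gene and read 3.55 and 3.43 on the A347S arrays, 4.13 and 4.22 on those of Δ486, and 3.76 to 4.04 on the other 6 arrays. Its difference was -0.68 (SE 0.08, adjusted p = 0.157 in limma), and the next smallest adjusted p was 0.642.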
